A study of Homo sapiens with 9 samples.

Results

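The 10 genes described here encode 4 cyclin-dependent kinases, CDK1, CDK2, CDK4 and CDK6, and 6 inhibitors of such kinases, CDKN1A, CDKN1B, CDKN1C, CDKN2A, CDKN2C and CDKN2D. They were picked by name, through the Ensembl gene identifier of each symbol, from 58381 identifiers in the files, and all 10 were among the 13777 genes tested, those with at least 1 FPKM (fragments counted per unit of transcript length and library size) in at least 3 libraries. The cells were HK1, an established line from a human nasopharyngeal carcinoma, a squamous tumour of the upper throat. They were harvested 48 h after transfection with 100 nM siRNA in 3 groups of 3 libraries, which received a non-targeting control siRNA, E2F1 siRNA or E2F3 siRNA. All libraries thus came from 1 cell line under transfection, and no untransfected cells were analysed here. Nothing in the labels ties the libraries of a group to separate cultures, so the p-values speak of library-to-library spread, which may be technical.

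Cyclin-dependent kinases are active only when bound to a cyclin. CDK4 and CDK6 pair with D-type cyclins early in G1 and start the phosphorylation of the retinoblastoma protein, CDK2 pairs with cyclins E and A around S phase, and CDK1 pairs with cyclins A and B to drive mitosis. The inhibitors fall into 2 families. The CDKN1 proteins (p21, p27 and p57) bind cyclin-kinase complexes broadly, while the CDKN2 proteins bind CDK4 and CDK6 alone and keep them from the D-type cyclins. E2F1 and E2F3 are transcription factors released when the retinoblastoma protein is phosphorylated, and are known to drive genes of S phase entry. Loss or silencing of CDKN2A is a well known event in nasopharyngeal carcinoma.

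The promoters are shown first, since the factors lowered here bind DNA. RefSeq promoter sequences (GRCh38.p14) were matched by symbol for 8 of the 10 genes, with 13 annotated starts, and the 250 bases before each start were searched on both strands. The words TTCCCGC or else TTCGCGC, and likewise the words TTGCCGC or else TTGGCGC, were taken as the E2F core. The cell cycle homology region (CHR), an element of genes of late cell cycle phases, was taken as TTTGAA or else TTCGAA. None of these words overlaps another in the windows that hold them. An E2F core stood in 3 of the 13 windows, which belong to CDK1 and CDKN2C, and a CHR word in 2, both of CDK1. The 2 windows of CDK1 overlap and share 1 E2F core, TTGGCGC. In the same 250 bases of all 35116 promoters in that table, 10.9% held an E2F core and 14.3% a CHR word. The first sequence is the stretch before the most upstream start of CDK1 (chr10:60778081-60778330, plus strand), shown because it holds both kinds of word. The next lines show 30 bases around the other words of CDK1 (chr10:60778339-60778368, chr10:60778397-60778426 and chr10:60778448-60778477) and around those of CDKN2C (chr1:50968563-50968592 and chr1:50968660-50968689), all on the plus strand. The last is the stretch before the annotated exons of CDK6 (chr7:92836595-92836823, minus strand), the kinase gene that rose most, shown because neither word is in it. All are written 5′ to 3′ with the words in capitals.
CDK1, before the upstream start: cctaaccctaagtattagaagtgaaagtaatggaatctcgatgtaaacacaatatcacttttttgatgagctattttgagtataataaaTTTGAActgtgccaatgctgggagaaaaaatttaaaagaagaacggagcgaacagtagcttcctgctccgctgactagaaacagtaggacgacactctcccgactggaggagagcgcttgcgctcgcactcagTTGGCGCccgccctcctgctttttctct
CDK1, E2F core: tttcctctttctTTCGCGCtctagccaccc
CDK1, CHR word: ctgattggctgcTTTGAAagtctacgggct
CDK1, CHR word nearest the downstream start: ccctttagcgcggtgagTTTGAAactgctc
CDKN2C, E2F core on the minus strand: ggagagcgggagGCGGGAAtgagggcgcgg
CDKN2C, E2F core on the plus strand: cggcgcccggccTTCCCGCtcccgcggcgc
CDK6, before the annotated exons: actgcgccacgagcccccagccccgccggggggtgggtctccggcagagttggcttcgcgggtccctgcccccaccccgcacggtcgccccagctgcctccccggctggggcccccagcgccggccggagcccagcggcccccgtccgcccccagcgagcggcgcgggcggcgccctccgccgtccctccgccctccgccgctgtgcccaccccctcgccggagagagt

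The windows of CDK4, CDK6, CDKN1A, CDKN1B, CDKN2A and CDKN2D held neither word, which says only that these letters are not in these 250 bases. Many of the windows overlap annotated exons. Of the 250 bases, 244 are exonic for CDKN1B, 211 for CDK4, 152 for CDKN1A and 80 for CDKN2D. For CDKN2A 241 and 24 are, and for CDK6 0 and 21. The CDKN2C window that holds its words is exonic over all 250 bases, and the downstream window of CDK1 over 147. Set beside the levels given further on, CDK1 and CDKN2C changed by at most 0.20 on the log2 scale in any comparison. The genes without a word took in those that changed most, CDKN1B, CDKN1A and CDK6. They also took in CDK4 and CDKN2A, which were not called in any comparison. Whether the words bear on the changes was not tested. CDK2 and CDKN1C were not searched.

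The libraries were close in depth. The worth of 1 fragment, read from the steps of low values in single-exon genes, gave relative depths between 0.855 and 1.21 with control replicate 1 set to 1.0. Each siRNA lowered its own target. E2F1 was at 19.9 ± 0.335 FPKM in control and 7.48 ± 0.412 with E2F1 siRNA, and E2F3 was at 25.4 ± 1.504 in control and 11.4 ± 1.09 with E2F3 siRNA (SD, n = 3). E2F1 was at 21.7 ± 1.08 with E2F3 siRNA and E2F3 at 28.7 ± 0.826 with E2F1 siRNA, neither called against control. Epithelial markers were present throughout, namely KRT5, KRT14, KRT17, KRT18, TP63, SFN, CDH1 and EPCAM. Their summed level was 2255 to 2310 FPKM in control, 1673 to 1741 with E2F1 siRNA and 1510 to 1601 with E2F3 siRNA. Of the 8, 6 were called lower against control in each knockdown. Among all genes tested, 17.3% were called lower with E2F1 siRNA and 16.4% with E2F3 siRNA. EPCAM was not called after either siRNA, SFN not with E2F1 siRNA and CDH1 not with E2F3 siRNA. Fibroblast markers summed to 13.5 to 15.2 FPKM in control, 18 to 19.9 with E2F1 siRNA and 14.7 to 17.5 with E2F3 siRNA. Nearly all of that was COL1A1, the only one of the 5 that passed the filter, which rose with E2F1 siRNA (log2 0.45), while DCN stayed at a mean under 0.1 FPKM in each group. Endothelial markers summed to at most 1.87 FPKM in any library. Leukocyte markers summed to 17.6 to 27.1, mostly CD68, which epithelial cells also make, with PTPRC and CD3E at means under 0.2. Control replicate 3 stood apart in LYZ, a myeloid gene, at 7.49 FPKM against 0.53 to 1.06 in the other libraries. It also had the highest PECAM1, at 1.46, and CD3E, at 0.08. Other markers of these lists did not set it apart. PTPRC was at 0.38 there and 0.46 in E2F1 siRNA replicate 3, and VWF (0.38) and CD68 (19.02) lay within the range of the other libraries. Without control replicate 3, the calls of the 10 genes that were lost were that of CDKN2D with E2F3 siRNA and that of CDKN1A between the knockdowns. The part of these shifts in the results was not tested. In bulk libraries, a change in the share of cells in a cell cycle phase and a change of RNA per cell cannot be told apart.

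In control cells the 10 genes spanned a wide range, and CDK4 led. CDK4 was at 214 ± 7.87 FPKM, followed by CDK2 at 114 ± 1.55, the inhibitor CDKN1A at 98.0 ± 1.74 and CDK1 at 89.0 ± 4.66, and no neighbours among these overlapped. CDKN1C at 38.3 ± 2.49 and CDKN1B at 37.5 ± 0.481 overlapped each other, with CDKN2C below them at 29.4 ± 1.27. CDK6 at 16.6 ± 0.471 and CDKN2A at 16.2 ± 0.300 overlapped as well, and CDKN2D was lowest at 4.30 ± 0.656 (SD, n = 3 each). With E2F1 siRNA, CDK1 stood above CDKN1A, and CDKN1B fell in rank to a level overlapping that of CDK6. With E2F3 siRNA, CDK1 was again above CDKN1A, CDKN1B stayed above CDKN2C, and CDK6 moved clear of CDKN2A. The plot of levels by library shows these values.

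**Figure D1:**
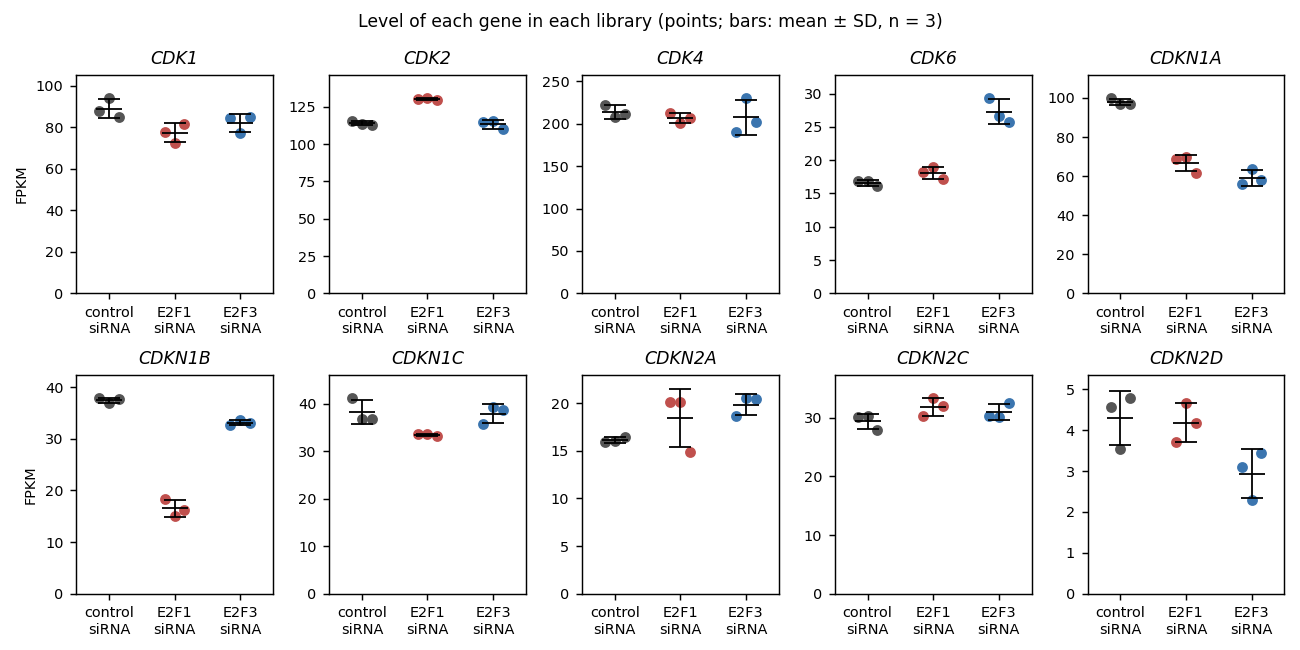
Level of each of the 10 genes in FPKM (y axis, from 0) in the 3 libraries of each siRNA group (x axis), with the mean and SD as bars. CDKN1B lay between 15.1 and 18.3 FPKM with E2F1 siRNA, below every other library, and CDK6 lay between 25.78 and 29.33 with E2F3 siRNA, above every other library.

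Among the kinases, CDK2 rose and CDK1 fell with E2F1 siRNA, CDK6 rose with E2F3 siRNA, and CDK4 was not called in any comparison. A gene was called at a limma adjusted p below 0.05, which took in 20.5% of all 13777 genes as higher and 17.3% as lower with E2F1 siRNA, 21.1% and 16.4% with E2F3 siRNA, and 23.5% and 22.0% for E2F3 against E2F1 siRNA. CDK2, the kinase of S phase entry (12:55966769-55972784 in GRCh38), had levels of 115.67, 113.71 and 112.61 FPKM in control, 129.9, 130.86 and 129.74 with E2F1 siRNA, and 114.52, 115.19 and 110.0 with E2F3 siRNA. All E2F1 siRNA libraries lay above all the others, and the E2F3 siRNA libraries overlapped control. CDK2 rose by a log2 change of 0.19 with E2F1 siRNA (SE 0.03; limma adjusted p = 0.00165), a ratio of means of 1.14. Its log2 change with E2F3 siRNA was -0.01 (95% interval -0.09 to 0.07; adjusted p = 0.842). The direct comparison of E2F3 with E2F1 siRNA was called for CDK2 (log2 -0.20, SE 0.03; limma adjusted p = 0.00101).

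CDK1, the mitotic kinase (10:60778331-60794852), moved the other way. It was at 87.93, 94.12 and 85.0 FPKM in control, 77.67, 72.63 and 81.75 with E2F1 siRNA, and 84.24, 77.11 and 85.03 with E2F3 siRNA. The E2F1 siRNA libraries all lay under control, by a narrow gap, and those of E2F3 siRNA overlapped both other groups. CDK1 fell by 0.20 on the log2 scale with E2F1 siRNA (SE 0.06; limma adjusted p = 0.0245). That call was lost without control replicate 1 (log2 -0.21), control replicate 2 (-0.16), E2F1 siRNA replicate 1 (-0.20) or E2F1 siRNA replicate 2 (-0.16). With E2F3 siRNA the log2 change was -0.11 (95% interval -0.25 to 0.02; adjusted p = 0.160), and the knockdowns did not differ by the direct test at this threshold (log2 0.09, interval -0.05 to 0.22). The level of CDK1 per CDK2, a ratio of FPKM, was 0.781 ± 0.0406 in control, 0.594 ± 0.0377 with E2F1 siRNA and 0.726 ± 0.0525 with E2F3 siRNA (SD, n = 3).

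CDK6, one of the pair of D-cyclin kinases (7:92604921-92836594), gave the largest kinase change. It was at 16.89, 16.86 and 16.06 FPKM in control, 18.19, 19.0 and 17.2 with E2F1 siRNA, and 29.33, 26.66 and 25.78 with E2F3 siRNA. The E2F3 siRNA libraries lay far above the rest, and those of E2F1 siRNA only just above control. CDK6 rose with E2F3 siRNA by a log2 change of 0.68 (SE 0.06; limma adjusted p = 3.11e-05), a ratio of means of 1.64. With E2F1 siRNA the log2 change was 0.12 (95% interval -0.02 to 0.26; adjusted p = 0.167). The difference between the knockdowns was called (log2 0.56, SE 0.06; limma adjusted p = 7.16e-05).

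CDK4, the partner kinase (12:57747727-57756013), was at 222.69, 207.41 and 211.75 FPKM in control, 213.19, 200.95 and 206.44 with E2F1 siRNA, and 190.02, 230.39 and 202.45 with E2F3 siRNA. All 3 groups overlapped, and E2F3 siRNA replicates 1 and 2 held the lowest and highest value of all. No comparison of CDK4 was called, with log2 changes of -0.05 (95% interval -0.19 to 0.10) with E2F1 siRNA, -0.05 (-0.19 to 0.10) with E2F3 siRNA and 0.00 (-0.14 to 0.15) between them. Exons of TSPAN31 on the opposite strand cover 43.2% of the exon length of CDK4, so without strand some reads cannot be assigned. TSPAN31 was listed at 10.94 to 18.87 FPKM, and the effect of the overlap on the level of CDK4 was not tested. CDK6 made up 7.21 ± 0.270% of the summed CDK4 and CDK6 level in control, 8.06 ± 0.505% with E2F1 siRNA and 11.7 ± 1.54% with E2F3 siRNA (SD, n = 3). The 4 kinases together summed to 434 ± 8.97 FPKM in control, 432 ± 8.08 and 430 ± 16.8 after the siRNAs, so their total differed by less than the spread between libraries.

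All 3 CDKN1 genes were lower with E2F1 siRNA, and CDKN1A was lower after both siRNAs. CDKN1B, which encodes p27, the inhibitor tied to quiescence (12:12715058-12722371), was at 37.86, 36.97 and 37.73 FPKM in control, 18.3, 15.1 and 16.13 with E2F1 siRNA, and 32.61, 33.64 and 33.1 with E2F3 siRNA. Its groups did not overlap in any comparison, and the E2F1 siRNA libraries stood far below the other 6. CDKN1B fell by 1.14 on the log2 scale with E2F1 siRNA (SE 0.06; limma adjusted p = 1.29e-06), a ratio of means of 0.440, and this was the largest change of any of the 10 genes. With E2F3 siRNA the log2 change was -0.18 (95% interval -0.32 to -0.03), which did not pass (adjusted p = 0.0574). It did pass, at log2 -0.18 each time, with only the 6 libraries compared, with a filter of 5 FPKM and without E2F1 siRNA replicate 1 or 2, and with RLE scaling (log2 -0.23). Between the knockdowns it was called (log2 0.97, SE 0.06; limma adjusted p = 2.27e-06), a ratio of means of 2.01.

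CDKN1A, which encodes p21, the best known p53 target among the inhibitors (6:36676460-36687339), was at 100.0, 96.97 and 97.0 FPKM in control, 68.85, 69.61 and 61.78 with E2F1 siRNA, and 55.94, 63.6 and 57.8 with E2F3 siRNA. Every knockdown library lay under every control library, and the knockdown groups overlapped each other. CDKN1A fell by 0.55 on the log2 scale with E2F1 siRNA (SE 0.06; limma adjusted p = 7.80e-05) and by 0.72 with E2F3 siRNA (SE 0.06; adjusted p = 1.57e-05). These changes share the control libraries. The direct difference was called (log2 -0.17, SE 0.06; limma adjusted p = 0.0398), but the call was lost without any 1 of the 3 control libraries (log2 -0.17 each time), without E2F1 siRNA replicate 1 (-0.15) or 2 (-0.14), and without E2F3 siRNA replicate 1 (-0.13) or 3 (-0.16). It was also lost with only the 6 libraries compared (log2 -0.17) and with upper-quartile scaling (-0.13).

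CDKN1C, which encodes p57, the imprinted member of the family (11:2883213-2885773), was at 41.19, 36.87 and 36.9 FPKM in control, 33.63, 33.66 and 33.16 with E2F1 siRNA, and 35.7, 39.39 and 38.76 with E2F3 siRNA. The E2F1 siRNA libraries were nearly level and under all the others, while control and E2F3 siRNA overlapped. CDKN1C fell by 0.19 on the log2 scale with E2F1 siRNA (SE 0.06; limma adjusted p = 0.0276). The call was lost without control replicate 1, the highest library (log2 -0.14), and without any 1 of the E2F1 siRNA libraries (log2 -0.18 to -0.19). With E2F3 siRNA the log2 change was -0.01 (95% interval -0.14 to 0.12), and the direct difference of 0.17 (SE 0.06; limma adjusted p = 0.0318) was lost without E2F3 siRNA replicate 2 (0.15) or 3 (0.16), and without any 1 of the E2F1 siRNA libraries (0.17 to 0.18), as well as with RLE scaling (0.14).

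Summed over the family, the CDKN1 level was 174 ± 4.54 FPKM in control, 117 ± 5.06 with E2F1 siRNA and 130.2 ± 6.21 with E2F3 siRNA (SD, n = 3). The make-up of the sum differed. CDKN1B made up 21.6 ± 0.422% of it in control, 14.1 ± 1.24% with E2F1 siRNA and 25.5 ± 0.814% with E2F3 siRNA. Against CDK2, a main target of p27, the ratio of CDKN1B to CDK2 in FPKM was 0.329 ± 0.00522 in control, 0.127 ± 0.0129 with E2F1 siRNA and 0.293 ± 0.00809 with E2F3 siRNA. The same ratio for CDKN1A was 0.860 ± 0.00608 in control and was nearly level between knockdowns, at 0.513 ± 0.0316 and 0.522 ± 0.0320. These sums and ratios are descriptions of RNA levels without a test.

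**Figure D2:**
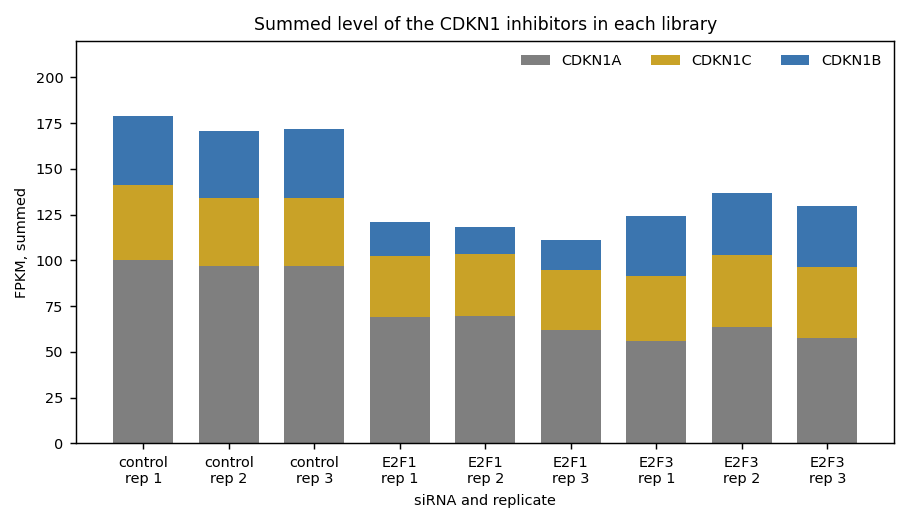
Summed FPKM of CDKN1A, CDKN1C and CDKN1B (y axis, from 0) in each of the 9 libraries (x axis), stacked by gene. All 6 knockdown libraries lie between 111.07 and 136.63 FPKM, under the control libraries at 170.81 to 179.05, and the CDKN1B segment is thinnest with E2F1 siRNA.

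Of the 3 CDKN2 genes, 0 were called with E2F1 siRNA in limma, at an adjusted or an unadjusted p below 0.05, and CDKN2D fell with E2F3 siRNA. CDKN2A, which encodes p16 and, from another start, the p53 activator ARF (9:21967753-21995301), was at 15.92, 16.08 and 16.5 FPKM in control, 20.15, 20.18 and 14.92 with E2F1 siRNA, and 18.61, 20.52 and 20.46 with E2F3 siRNA. The values are per gene, so the transcripts of p16 and ARF cannot be told apart. E2F1 siRNA replicate 3 was the lowest of the 9 libraries, while the other two of its group were about level with the E2F3 siRNA libraries. The log2 change of CDKN2A was 0.17 with E2F1 siRNA (95% interval -0.07 to 0.40; adjusted p = 0.241) and 0.28 with E2F3 siRNA (0.05 to 0.51; adjusted p = 0.0574). Without E2F1 siRNA replicate 3 both passed, at log2 0.30 (limma adjusted p = 0.0068) and 0.28 (adjusted p = 0.005255). The change with E2F3 siRNA also passed with only the 6 libraries compared (log2 0.28).

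CDKN2C, which encodes p18 (1:50960745-50974633), was at 30.06, 30.23 and 27.95 FPKM in control, 30.26, 33.32 and 31.98 with E2F1 siRNA, and 30.22, 30.1 and 32.47 with E2F3 siRNA. The E2F1 siRNA libraries began just above the highest control library, and those of E2F3 siRNA overlapped control. No comparison was called, with log2 changes of 0.11 (95% interval -0.01 to 0.24) with E2F1 siRNA, 0.07 (-0.06 to 0.20) with E2F3 siRNA and -0.04 (-0.17 to 0.09) between the knockdowns. CDKN2D, which encodes p19 of the same family (19:10566462-10569059), was at 4.56, 3.55 and 4.78 FPKM in control, 3.7, 4.67 and 4.18 with E2F1 siRNA, and 3.09, 2.28 and 3.44 with E2F3 siRNA. The E2F3 siRNA libraries were the lowest of all. At the worth of a fragment given above and the annotated exon length, these levels stand for roughly 74 to 194 fragments a library.

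CDKN2D fell by 0.43 on the log2 scale with E2F3 siRNA (SE 0.14; limma adjusted p = 0.0354), a ratio of means of 0.684. The call was lost without control replicate 1 (log2 -0.39) or 3 (-0.37), without E2F3 siRNA replicate 1 (-0.47) or 2 (-0.31), and with only the 6 libraries compared (-0.43). With E2F1 siRNA the log2 change was -0.03 (95% interval -0.34 to 0.29). The direct difference (log2 -0.40, SE 0.14; limma adjusted p = 0.0391) was lost without control replicate 1 (-0.40), without E2F1 siRNA replicate 2 (-0.34) or 3 (-0.40) and without E2F3 siRNA replicate 1 (-0.44) or 2 (-0.28), and with upper-quartile scaling (-0.37).

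Over all 10 genes, 1 was called higher and 4 lower with E2F1 siRNA, beside 20.5% and 17.3% of all genes tested. With E2F3 siRNA 1 was called higher and 2 lower, beside 21.1% and 16.4%. Between the knockdowns 3 were higher and 3 lower with E2F3 siRNA, beside 23.5% and 22.0%. The share furthest from that of all genes was that of the 4 lower genes with E2F1 siRNA, 3 of which are the CDKN1 genes. It rests on 10 genes and was not tested. Of the 4, CDK1 and CDKN1C lost their calls with no filter and without some single libraries. The median log2 change of the 10 was -0.04 with E2F1 siRNA and -0.03 with E2F3 siRNA, where that of all tested genes was 0.03 and 0.04, and 0.04 between the knockdowns, where it was 0.02. With RLE scaling, 44.7% of all calls with E2F3 siRNA were higher rather than 56.2%. In data simulated for E2F1 siRNA against control over 13777 genes, the test recovered 32% of genes changed 1.25-fold and 80% of those changed 1.5-fold. Only 50 genes per fold were changed there, while 2830 were called higher and 2380 lower in the data. The adjusted threshold was thus stricter in the simulation, so these rates are not those of the data.

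**Figure D3:**
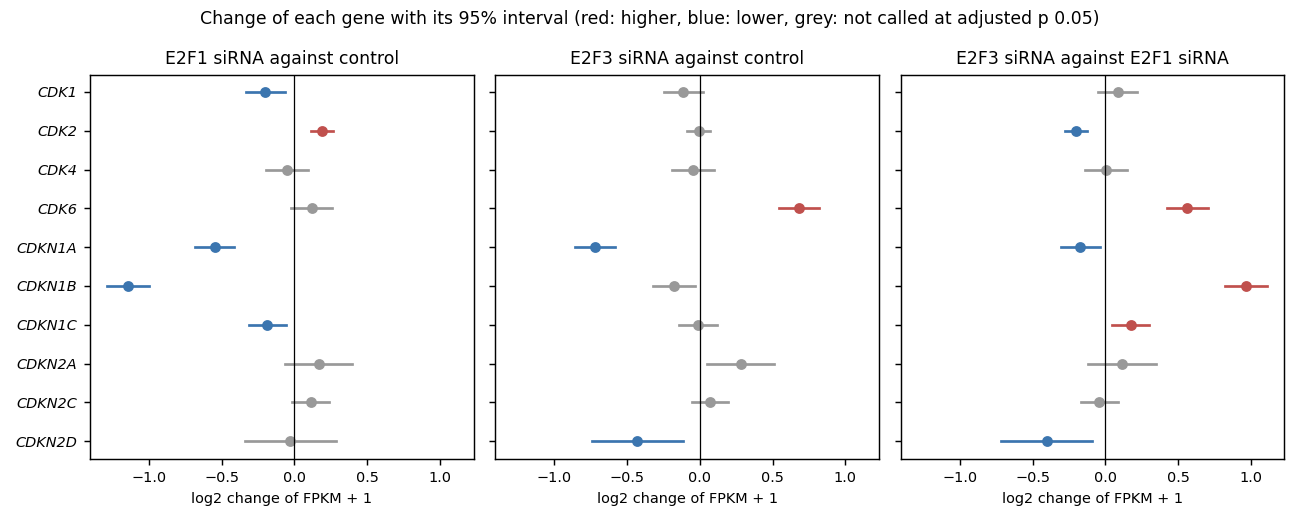
Change of each gene (x axis, log2 of FPKM + 1) with its 95% interval from the limma fit, in the 3 comparisons (panels), coloured by the call. CDKN1B lies farthest from 0, at -1.14 with E2F1 siRNA and 0.97 between the knockdowns, followed by CDKN1A at -0.72 and CDK6 at 0.68 with E2F3 siRNA, and the intervals of CDK4 and CDKN2C include 0 in each panel.

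For each called gene, the protein-coding genes most like it were sought among 9408 genes with a mean of at least 5 FPKM, by Pearson's r over the 9 libraries on the log2 scale. The libraries form 3 groups, so r mostly follows the 3 group levels, and it is given as a description. CDKN1B was followed most closely by TIMM22 (r = 0.997), at a mean of 11.1 FPKM in control, 5.26 with E2F1 siRNA and 9.73 with E2F3 siRNA, and by VAMP3 (r = 0.996), at 62.1, 30.5 and 57.4. CDK2 was closest to TXLNA (r = 0.998) and AEN (0.984). CDK6 was closest to PTPRJ (r = 0.994), at 5.40, 5.68 and 10.0 FPKM, and AGTPBP1 (0.991). CDKN1A was closest to RNF167 (r = 0.989) and PCDH1 (0.986). For CDK1 the closest were TXNRD1 (0.968) and NOL11 (0.948), for CDKN1C ZDHHC24 (0.950) and RPS16 (0.948), and for CDKN2D SPCS1 (0.929) and CLASRP (0.924).

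Of 9 cyclins that the 4 kinases bind, 3 rose and 3 fell with E2F1 siRNA (median log2 0.13, beside 0.03 over all genes). With E2F3 siRNA 1 rose and 5 fell (median -0.48, beside 0.04). Of all genes tested, 20.5% were called higher and 17.3% lower with E2F1 siRNA, and 21.1% and 16.4% with E2F3 siRNA. CCND1, the D-type partner of CDK4 and CDK6, fell by 0.40 with E2F1 siRNA (SE 0.04) and by 1.0 with E2F3 siRNA (SE 0.04; limma adjusted p = 3.07e-07), from 77.7 ± 2.26 FPKM in control to 58.8 ± 1.21 and 38.4 ± 1.43. The E-type partners of CDK2, CCNE2 and CCNE1, fell by 0.85 (SE 0.05) and 0.67 (SE 0.08) with E2F3 siRNA, while CCNA2, a cyclin A that also binds CDK2, was not called there (log2 -0.06; adjusted p = 0.422). The partners of CDK1 rose with E2F1 siRNA, CCNB2 by a log2 change of 0.54 (SE 0.04) and CCNB1 by 0.50 (SE 0.04), in the libraries where CDK1 itself was lower. In the direct comparison 7 of the 9 were lower in the E2F3 than in the E2F1 siRNA libraries and 0 were higher. Over all genes tested, 22.0% were lower and 23.5% higher there. CCNB1 (log2 -0.61), CCND1 (-0.60) and CCNE2 (-0.67) had the smallest adjusted p of the 9.

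Enzymes and adaptors that act on the kinases were also mixed. Of 14, 6 rose and 2 fell with E2F1 siRNA (median 0.10), beside 20.5% and 17.3% of all genes tested. With E2F3 siRNA 3 rose and 3 fell (median -0.02), beside 21.1% and 16.4%. In the direct comparison 2 were higher and 9 lower, beside 23.5% and 22.0%. WEE1, which phosphorylates and restrains CDK1 and CDK2, was at 87.4 ± 6.07 FPKM in control, 51.2 ± 1.09 with E2F1 siRNA (log2 -0.76, SE 0.06; limma adjusted p = 6.49e-06) and 88.6 ± 4.15 with E2F3 siRNA. CDKN3, a phosphatase of CDK2, rose from 38.4 ± 0.703 to 64.5 ± 4.05 with E2F1 siRNA (log2 0.73, SE 0.05), and CKS2, a small subunit of the kinase complexes, rose with it (log2 0.49, SE 0.04). All of WEE1, CDKN3 and CKS2 differed between the knockdowns (log2 0.78, -0.62 and -0.52). With E2F3 siRNA, CDC25B, which activates the kinases, fell by 0.31, PKMYT1, a kinase that restrains CDK1, fell by 0.63, and MNAT1, of the CDK-activating kinase, rose by 0.23.

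**Figure D4:**
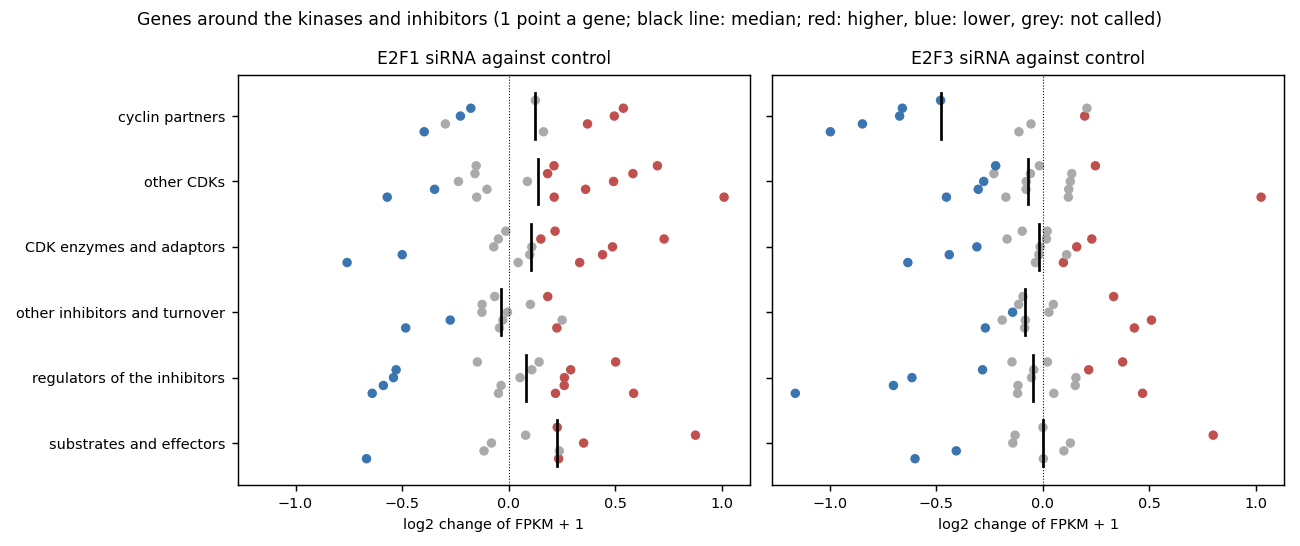
Log2 change of FPKM + 1 (x axis) of the tested genes of 6 lists around the kinases and inhibitors (rows), with E2F1 siRNA and with E2F3 siRNA (panels), coloured by the call, with the median as a black line. The cyclin partners lie around a median of 0.13 in the first panel and -0.48 in the second.

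Among the other cyclin-dependent kinases, 8 of 16 tested rose and 2 fell with E2F1 siRNA (median 0.14), and 2 rose and 4 fell with E2F3 siRNA (median -0.07). Over all genes tested 20.5% were called higher and 17.3% lower with E2F1 siRNA, and 21.1% and 16.4% with E2F3 siRNA. CDK9, the kinase of transcription elongation, went in opposite directions: it was at 36.0 ± 1.22 FPKM in control, 59.0 ± 1.87 with E2F1 siRNA (log2 0.70, SE 0.05) and 28.96 ± 0.959 with E2F3 siRNA (log2 -0.30, SE 0.05). Its direct difference was -1.0 (SE 0.05; limma adjusted p = 2.93e-07). In size it was near that of CDKN1B (0.97, SE 0.06), the largest of the 10 genes there. CDK16 rose by a log2 change of 0.58 and CDK8, of the Mediator kinase module, by 0.49 with E2F1 siRNA. With E2F3 siRNA CDK10 fell by 0.45 and CDK11B by 0.22, though CDK11B has a near-identical copy, CDK11A, between which reads can be split. Between the knockdowns 1 was higher and 6 were lower with E2F3 siRNA, among them CDK16 (log2 -0.64) and CDK11B (-0.40). The shares of all genes there were 23.5% higher and 22.0% lower.

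Of 12 other inhibitors and turnover genes, 2 rose and 2 fell with E2F1 siRNA, and 3 rose and 2 fell with E2F3 siRNA. These shares are near those of all genes tested, 20.5% higher and 17.3% lower with E2F1 siRNA and 21.1% and 16.4% with E2F3 siRNA. CDKN2B, which encodes p15 and neighbours CDKN2A, went from 6.98 ± 0.361 FPKM in control to 4.72 ± 0.430 with E2F1 siRNA (log2 -0.48, SE 0.08; limma adjusted p = 9.55e-04) and 10.3 ± 0.365 with E2F3 siRNA (log2 0.51, SE 0.08; adjusted p = 7.59e-04). The difference between the knockdowns was 0.99 (SE 0.08; limma adjusted p = 7.02e-06). CUL1, the scaffold of the ubiquitin ligase that marks p27, rose by a log2 change of 0.23 with E2F1 siRNA. SKP2, the part of that ligase that recognises p27, was chosen after its values were seen: it was at 78.0, 76.74 and 77.47 FPKM in control and 78.88, 75.45 and 77.07 with E2F1 siRNA, and was not called (log2 -0.01; adjusted p = 0.923). CKS1B, of the adaptors above, was likewise chosen after its values were seen. It went the other way from CUL1, falling by 0.50 with E2F1 siRNA (SE 0.05, limma adjusted p = 6.09e-05). UBE2L6 fell by 0.27 with E2F1 siRNA. CUL4A and FBXW7, of other ubiquitin ligases, rose by log2 changes of 0.33 and 0.43 with E2F3 siRNA. The FBXW7 call was lost without control replicate 2 (log2 0.37), without E2F3 siRNA replicate 1 (0.33) and with no filter (0.43). Between the knockdowns 4 were higher and 2 lower with E2F3 siRNA, with CUL4A at 0.23 and CUL1 at -0.34. The shares of all genes there were 23.5% higher and 22.0% lower.

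Among 16 transcriptional regulators of the inhibitors, 6 rose and 4 fell with E2F1 siRNA, and 3 rose and 4 fell with E2F3 siRNA. Of all genes tested, 20.5% were called higher and 17.3% lower with E2F1 siRNA, and 21.1% and 16.4% with E2F3 siRNA. KLF4, an activator of CDKN1A, fell by 0.54 (SE 0.05) and 1.16 (SE 0.05) on the log2 scale, from 35.6 ± 1.35 FPKM to 24.2 ± 0.784 and 15.4 ± 0.415. TP63 fell by 0.53 and 0.70, while TP73 rose by 0.59 with E2F1 siRNA. EZH2, a Polycomb enzyme known to silence CDKN2A, rose by 0.22 with E2F1 siRNA and fell by 0.28 with E2F3 siRNA. It was lower with E2F3 than with E2F1 siRNA by 0.50. In the same list, CBX7 rose after both siRNAs (0.50 and 0.47), and BMI1 was not called after either. Of 9 substrates and effectors, 4 rose and 1 fell with E2F1 siRNA, and 1 rose and 2 fell with E2F3 siRNA. RBL1, the pocket protein p107, rose after both (log2 0.88 and 0.80). RBL2 and FOXM1 rose by 0.35 and 0.23 with E2F1 siRNA, and MYBL2 and CDC6 fell by 0.60 and 0.41 with E2F3 siRNA. LIN52, of the complex that pocket proteins join, fell by 0.67 with E2F1 siRNA (SE 0.14), and was at 7.90 ± 1.06 FPKM with E2F3 siRNA beside 7.96 ± 1.55 in control. Its direct difference was 0.67 (SE 0.14). That was the 1 higher gene of the list in the direct comparison, where 6 were lower, among them MYBL2 (log2 -0.52) and FOXM1 (-0.23). Of the regulators 1 was higher and 5 were lower there, among them KLF4 (-0.62) and TP73 (-0.70). The shares of all genes in the direct comparison were 23.5% higher and 22.0% lower.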

How the data were processed

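RNA sequencing of 9 HK1 libraries was used, with groups and replicate numbers from the sample titles. The deposited files give FPKM per gene to 2 decimals, 1 library a file, per the file headers. Trimmomatic, TopHat, HISAT2, HTSeq, DESeq and build GRCh38 are named in the submitters' processing notes, without versions, roles or order. Of 59107 entries, the 58381 with an Ensembl identifier were named from GENCODE 29, whose coordinates are given, and 12 entries of text were left out. Genes of at least 1 FPKM in at least 3 libraries (13777) were fitted together in limma (version 3.58.1, R 4.3.3, with trend) of log2(FPKM + 1) with a mean per group. Fold changes are on that scale, which understates those of low genes. The p-values are two-sided and were adjusted by Benjamini-Hochberg over every gene tested. Joins and motif searches were run in Python 3.11.15. No pair of libraries shared more than 2.82% of identical nonzero values. The test was tried on simulated data (13777 genes, E2F1 siRNA against control, 50 changed per fold), where 7 of 160 calls were unchanged genes. Members and lists were chosen with earlier results of these data known. Named genes are the 10 members, the siRNA targets, the 3 called genes of smallest adjusted p per list and comparison, and the 2 most similar genes per called member. SKP2, CKS1B, CCNA2, CBX7, BMI1, TSPAN31 and single marker genes were added after their values were seen. Alternatives were another added constant, no filter or one of 5 FPKM, only the libraries compared, RLE and upper-quartile scaling, a replicate block, and leaving out each library.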

Additional observations from a re-analysis of the deposited data

How the results depend on the processing

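The calls of CDK2, CDKN1A and CDKN1B after E2F1 siRNA, of CDK6 and CDKN1A after E2F3 siRNA, and of CDK2, CDK6 and CDKN1B between the knockdowns held their direction and their side of the threshold in all 16 alternatives. Over the 10 genes and 3 comparisons, 423 of 477 alternative values kept their side of the threshold without a clear change of sign. For an uncalled value, a change of sign counted as clear only if the value moved by at least its SE in the fit described above. Of the rest, 42 lost a call, 10 gained one and 2 clearly changed sign. CDKN2D has no value with a filter of 5 FPKM, which it does not pass. Without any filter, 2 genes were lower after E2F1 siRNA, 1 after E2F3 siRNA and 1 in the direct comparison. After E2F3 siRNA 2 genes were higher with a filter of 5 FPKM, with only the libraries compared and with upper-quartile scaling, and that scaling left 1 lower gene in the direct comparison. The cause was not tested. Leaving out 1 library gave 1 to 2 higher and 2 to 4 lower genes after E2F1 siRNA, 1 to 2 higher and 1 to 3 lower after E2F3 siRNA, and 2 to 3 higher and 1 to 2 lower between the knockdowns. Values that were not called clearly changed sign for CDK4 between the knockdowns without E2F3 siRNA replicate 2 (log2 -0.076, up to 0.062 without other libraries). The same held for CDKN2A between the knockdowns without E2F1 siRNA replicate 3 (-0.022, up to 0.184), and for FOXM1 after E2F3 siRNA with RLE scaling (-0.0537). Same-numbered libraries deviated from their group means with correlations of -0.106 to 0.112 over genes, beside -0.077 to 0.069 for libraries of different number. Whether a number stands for a shared batch was not tested. The replicate block left 3 lower genes after E2F1 siRNA, as CDKN1C lost its call (log2 -0.19), and 2 higher ones between the knockdowns, CDKN1C again (0.17). CDKN2D, the lowest of the 10 genes, rests on roughly 74 to 194 fragments a library.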
